A study of Rattus norvegicus and Mus musculus with 74 samples.

Results

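Immediate early genes are the genes that neurons transcribe first after activity, before any new protein has to be made. The 10 described here were taken by name: the AP-1 genes Fos, Fosb, Jun and Junb, the zinc finger factors Egr1 and Egr2, the neuronal effectors Arc and Npas4, and the orphan nuclear receptors Nr4a1 and Nr4a2. Each took the region listing it with the highest mean signal over all libraries of its species. All 10 were found among 23362 mouse genes, and 9 among 20110 rat genes, where Fosb was not analysed here.

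The data were ChIP-seq signal of 4 histone marks in brain cortex: H3K4me3 of active promoters, H3K9Ac of active promoters and enhancers, H3K27me3 of Polycomb repression, and H3K9me3 of constitutive heterochromatin. Sprague-Dawley rats were healthy controls given vehicle, or animals with a prenatal VPA (valproate) injection given vehicle or TAK-418. C57BL/6J mice were healthy controls given vehicle, or animals with a prenatal poly I:C injection given vehicle or TAK-418. Poly I:C is a synthetic RNA that mimics a viral infection, and TAK-418 inhibits LSD1, an enzyme that removes methyl groups from H3K4. Each group had 3 libraries per mark, or 72 ChIP libraries among 74 samples, and the other 2 were pooled inputs, not used here. No healthy control received TAK-418, so the compound can be compared only within exposed animals. No source used here gives doses or ages, or says whether libraries within a group stem from different animals. The p-values therefore describe the spread among these libraries, which may be technical.

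In a resting neuron, the promoters of immediate early genes already carry active histone marks and a paused RNA polymerase. Calcium entry and growth factor signals then activate CREB, which binds cAMP response elements, and SRF, which binds CArG boxes, and transcripts appear within minutes. The AP-1, EGR and NR4A proteins go on to switch on later genes, while Arc acts at the synapse itself.

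Promoter sequences of rat members are shown because these binding letters are what CREB and SRF read. They come from RefSeq on the GRCr8 build, a later one than the rn5 build of the signal tables, and cover the 250 bases before the gene start. Of the 10 members, 7 had a promoter in that table. Capitals mark matches, searched on both strands over 250 bases before to 50 bases after the start. The letters searched were TGACG of the cAMP response element (written CGTCA on the other strand), the CArG box and TATAAA of the TATA box. Egr2 lies at chr20:21054442-21054691 on the minus strand, with the CArG box and CGTCA. Nr4a1 lies at chr7:134259888-134260137 on the plus strand, with CGTCA at 4 places. Junb lies at chr19:40080876-40081125 on the plus strand, with TGACG and TATAAA.
Egr2: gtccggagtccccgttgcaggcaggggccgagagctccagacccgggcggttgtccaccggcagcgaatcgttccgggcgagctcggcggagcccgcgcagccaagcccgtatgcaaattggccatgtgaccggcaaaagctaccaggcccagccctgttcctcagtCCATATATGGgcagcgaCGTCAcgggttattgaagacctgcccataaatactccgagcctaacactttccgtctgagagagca
Nr4a1: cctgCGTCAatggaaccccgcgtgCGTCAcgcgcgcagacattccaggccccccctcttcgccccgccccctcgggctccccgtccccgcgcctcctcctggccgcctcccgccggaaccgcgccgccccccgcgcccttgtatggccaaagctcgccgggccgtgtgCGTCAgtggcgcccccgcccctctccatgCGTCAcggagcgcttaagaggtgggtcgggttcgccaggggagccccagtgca
Junb: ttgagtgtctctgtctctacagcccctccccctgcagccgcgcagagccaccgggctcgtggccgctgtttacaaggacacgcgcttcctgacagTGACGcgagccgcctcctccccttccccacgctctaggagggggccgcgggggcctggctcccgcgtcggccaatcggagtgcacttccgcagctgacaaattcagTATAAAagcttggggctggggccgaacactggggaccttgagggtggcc

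TGACG was found in 5 of the 7 promoters (Egr1, Egr2, Junb, Nr4a1 and Nr4a2), against 21.2% of all 33469 promoters. In Nr4a1 the matches began 246, 226, 82 and 53 bases before the start, in Junb 155, in Egr2 66, and in Nr4a2 8. The CArG box was found in Egr1 and Egr2, against 1.64% of all promoters, and in Egr2 it began 83 bases before the start. TATAAA was found in Fosb and Junb, against 14.2% of all promoters. The full element TGACGTCA, the AP-1 letters TGANTCA and the EGR letters GCGTGGGCG were in 0 of the 7, against 1.83%, 7.33% and 0.544% of all promoters.

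The regions of these genes were long. Their median length was 26.0 kb in rats and 36.5 kb in mice, against 12.0 and 15.8 kb over all genes, and every member's region held a CpG island (68.1% and 69.7% of all genes). The Jun region was the shortest in mice, chromosome 4 from 95045000 to 95057599 (12.6 kb, mm10), and in rats it lay on chromosome 5 from 117956800 to 117964599 (7.80 kb, rn5). The Fos region had Fos alone, on rat chromosome 6 from 116246000 to 116267799 and on mouse chromosome 12 from 85457000 to 85494999. So did the Arc region, on rat chromosome 7 from 115800600 to 115830799 and on mouse chromosome 15 from 74655400 to 74687799.

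Some members share their region with other genes, and their values describe those genes as well. The Nr4a1 region was the longest of all, 192 kb on rat chromosome 7 from 140653800 to 140845999 and 142 kb on mouse chromosome 15 from 101160800 to 101302599. It also lists Acvr1b and Grasp. The mouse Fosb region (121 kb, chromosome 7 from 19255400 to 19376399) lists 10 further genes. The Junb region lists Prdx2, Hook2 and others, on rat chromosome 19 from 37046800 to 37096199 and on mouse chromosome 8 from 84960000 to 84999399.

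The gene start lay inside the region for all 10 members in mice and for 8 of 9 in rats. The exception was rat Egr2, whose strongest region (chromosome 20 from 24542800 to 24550199, 7.40 kb) is centred 9728 bp downstream of the start. The region that holds the Egr2 start is its neighbour, 24551400 to 24571799 (20.4 kb). Both list Ado, and values for the start region are given separately below. The downstream region holds 1 promoter and 1 CpG island, but not the Egr2 start. Rat Egr2 values and calls below are those of the downstream region, except where the start region is named.

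In control cortex the median immediate early gene stood above the middle of all genes for the active marks, with single members ranging widely. The median member was at percentile 73.7 ± 4.29 of all genes for H3K4me3 and 81.3 ± 3.25 for H3K9Ac in rats, and at 64.1 ± 1.48 and 79.0 ± 2.60 in mice (here and throughout, ± is the SD over n = 3 libraries). For H3K27me3 the median member stood at 74.8 ± 1.20 in rats and 70.4 ± 2.89 in mice. These ranks are among all genes listed, with or without an interval of the mark. Among genes with an H3K27me3 interval in at least 3 of 9 libraries, the 6 rat members had a median of 45.5 ± 2.69. The 5 mouse members had 42.3 ± 2.15. The same limit gave 65.4 ± 5.64 for H3K4me3 and 75.5 ± 4.26 for H3K9Ac in rats, and 52.5 ± 1.96 and 71.6 ± 3.64 in mice. In bulk cortex, fewer cells carrying a mark and less mark per cell cannot be told apart. Signal has no stated unit, and levels are compared between genes only as the mean signal along the region of 1 mark and species.

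Among the AP-1 genes, Jun is a subunit that pairs with Fos or with itself. By mean signal along the region, it was highest of all members for H3K4me3 and H3K9Ac in 9 of 9 libraries of each species. Its control H3K4me3 signal was 41.7, 68.8 and 59.0 in the rat libraries and 51.8, 26.9 and 25.0 in the mouse libraries. Its mean percentile was 99.8 in rats and 99.7 in mice for H3K4me3, and 99.9 and 99.3 for H3K9Ac. The Jun region was short, and by the highest signal in the region other members passed Jun in some libraries. For mouse control H3K4me3, Egr2 then had 269, 143 and 126 and Jun 286, 128 and 118. For H3K9Ac with poly I:C and vehicle, Arc had 69, 53 and 61 and Jun 54, 36 and 60. Junb, a subunit that often restrains Jun, reached percentile 88.1 for control H3K9Ac in rats, with a signal of 10.5 ± 1.16, and percentile 98.6 in mice, with 14.2 ± 4.14. Fos, which forms AP-1 only with a Jun protein, was lower, at 6.31 ± 0.637 (percentile 58.2) and 7.27 ± 1.54 (percentile 61.1). Fosb, whose splice form deltaFosB persists after repeated stimulation, had 8.51 ± 1.66 in mice (percentile 75.3).

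By mean signal along the region, the 2 EGR genes did not keep the same order in the 2 species. Egr1, a plasticity factor also called Zif268, had 9.74 ± 1.27 for control H3K9Ac in rats, which is percentile 84.7, and 12.0 ± 3.22 in mice, which is percentile 95.9. Egr2, also called Krox20, had 14.2 ± 1.74 in rats (percentile 96.9) but 5.44 ± 1.20 in mice (percentile 41.4). The rat value is that of the downstream region, and the rat Egr2 start region had 6.25, 4.76 and 5.52. On this measure the rat start region is thus below Egr1 in every control library, as Egr2 was in mice. The mouse Egr2 region was 57.2 kb long and also lists Ado, while that of Egr1 was 33.8 kb. By the highest signal in the region, the mouse order was the other way. Mouse Egr2 had 122, 78 and 66 for control H3K9Ac, and Egr1 had 93, 46 and 50. By the same measure the rat start region had 31.7 ± 9.07 and rat Egr1 80.0 ± 8.00.

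Arc, which trims AMPA receptors from the synapse, and Npas4, a calcium-driven factor for inhibitory synapses, differed from each other in both species. Arc had a control H3K9Ac signal of 10.8, 7.96 and 8.73 in rats and 16.5, 11.8 and 9.51 in mice. Npas4 had 6.50, 4.80 and 5.66 in rats and 11.3, 8.03 and 6.46 in mice. Arc was above Npas4 in each of these libraries, and in rats the groups of values did not overlap.

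Of the NR4A receptors, which act without a known natural ligand, Nr4a1 had the lowest H3K4me3 of all members in 9 of 9 libraries of each species. Its control signal was 7.01 ± 1.19 in rats and 9.10 ± 3.74 in mice, which is percentile 38.4 and 52.8. These are averages over a very long region: the highest signal anywhere in it was 152 ± 44.4 in rats and 145 ± 65.7 in mice. The same measure was 175 ± 44.5 and 177 ± 94.2 for the Jun region. Nr4a2, also required by dopamine neurons, had the lowest mouse H3K9Ac in 9 of 9 libraries, at 4.63 ± 0.852 in controls (percentile 35.4).

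Most neighbours in the order of control levels had overlapping ranges, which include differences between libraries that both genes share. For H3K4me3 the ranges of neighbours overlapped in 6 of 8 pairs in rats and 9 of 9 in mice, although 5 pairs in each species kept their order in all 9 libraries. In rats the gaps between Jun and Egr2 and between Arc and Npas4 were free of overlap. For H3K9Ac, 6 of 8 pairs overlapped in rats and 9 of 9 in mice. The rat pairs free of overlap were Jun above Egr2 and Egr2 above Junb. For this mark 4 pairs in rats and 5 in mice kept their order in all 9 libraries.

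**Figure D1:**
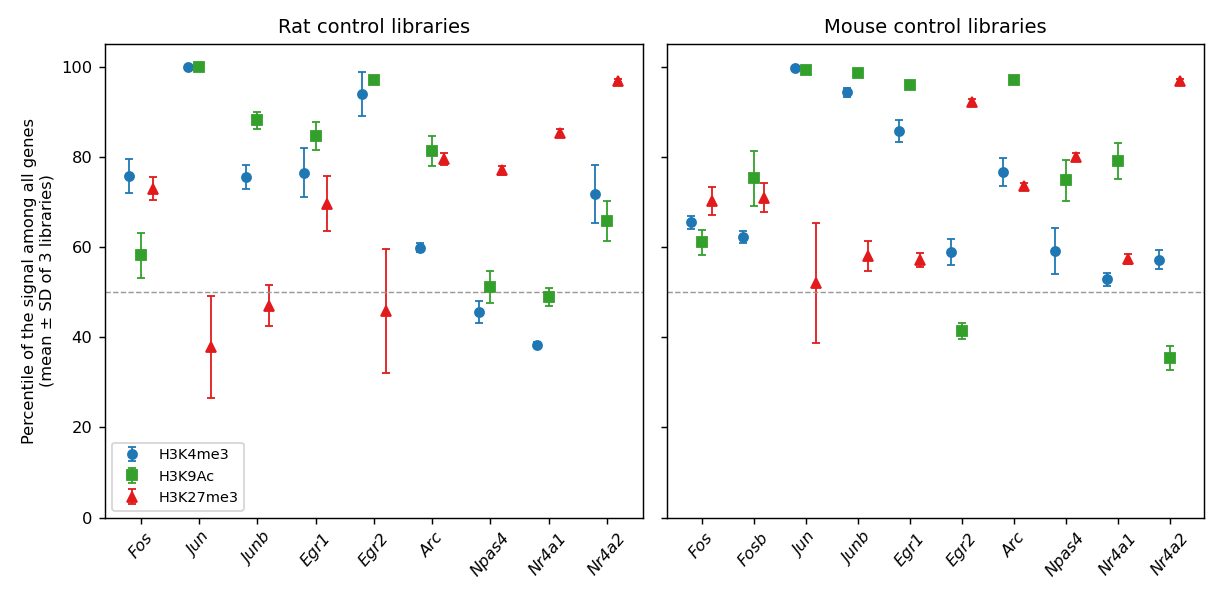
Percentile of each immediate early gene's signal among all genes of its species in the control libraries, for H3K4me3, H3K9Ac and H3K27me3 (y axis, mean and SD of 3 libraries; x axis, genes; left rat, right mouse; the dashed line is the middle of all genes). Jun is at the top for both active marks, and Nr4a2 stands highest for H3K27me3, at 96.9 in rats and 96.7 in mice.

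The regions of several members carried the Polycomb mark together with active marks. An interval of H3K27me3 was called in at least 3 of 9 libraries for 6 of 9 members in rats (Fos, Egr1, Arc, Npas4, Nr4a1 and Nr4a2), and for 5 of 10 in mice (Fos, Fosb, Egr2, Npas4 and Nr4a2). In mice the H3K27me3 interval was called in only 3 of 9 libraries for Fos and 4 of 9 for Npas4. All of the members named here also had H3K4me3 intervals. Over all genes, 32.6% in rats and 26.0% in mice had both, or 42.9% and 34.9% of the genes with H3K4me3. In bulk cortex, marks carried together by the same cells and marks carried by different cells cannot be told apart. An interval counts anywhere in the merged region, so the marks may lie at different places within it. In a region shared with other genes, such as that of rat Nr4a1 or mouse Fosb, they may lie at another gene.

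Over the strongest region of each gene, Nr4a2 had the highest H3K27me3 of all members in 9 of 9 libraries of both species. Its control signal was 13.2, 15.5 and 6.11 in rats and 6.23, 8.17 and 9.01 in mice. Nr4a1 followed in rats with 5.59 ± 2.42 (percentile 85.3), and Egr2 in mice with 5.95 ± 1.30 (percentile 92.0). The rat Egr2 start region, in which H3K4me3, H3K9Ac and H3K27me3 were all called in 9 of 9 libraries, had 12.4, 18.3 and 6.32 in controls (12.4 ± 6.00), above Nr4a2 in control libraries 2 and 3. Jun was the lowest member in controls, with 1.96 ± 0.927 in rats and 2.61 ± 0.268 in mice, and an H3K27me3 interval was called there in 0 of 9 libraries of either species.

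H3K9me3 was close to the lowest value the tables give above 0, which is 1, at every member. Means in the control libraries ran from 1.64 (Npas4) to 2.25 (Nr4a2) in rats and from 1.90 (Npas4) to 2.23 (Nr4a2) in mice. Only Nr4a1 and Nr4a2 in rats and Nr4a2 in mice had intervals in at least 3 of 9 libraries. The remaining Egr2 region in rats, on chromosome 20 from 24528400 to 24541999, differed: H3K27me3 and H3K9me3 were each called there in 9 of 9 libraries and the active marks in 0. Its H3K9me3 signal was 2.98 ± 0.468 in controls, 4.53 ± 0.708 with VPA and vehicle, and 4.23 ± 1.37 with VPA and TAK-418. The median H3K9me3 signal over tested rat regions rose as well, at 2.26 ± 0.236, 3.52 ± 0.503 and 3.48 ± 0.971 in the same groups.

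Whole libraries differed in level between groups, and this touches every comparison that follows. The median signal over tested rat regions was 6.51 ± 0.624, 12.9 ± 3.61 and 8.60 ± 1.34 for H3K9Ac in the control, vehicle and TAK-418 groups, and 14.8 ± 2.72, 19.8 ± 0.630 and 23.4 ± 4.75 for H3K4me3. In mice it was 7.15 ± 1.70, 4.56 ± 0.803 and 4.63 ± 0.768 for H3K9Ac and 11.2 ± 4.26, 7.35 ± 0.720 and 7.96 ± 0.698 for H3K4me3. No source used here states how libraries were scaled against each other or their read depth. Names of the ChIP libraries carry the tag dm beside the species code, and no source used here says what it stands for or whether it bears on scaling. So a change of the mark across the genome and a difference in scale between libraries cannot be told apart. Cortical neuron markers were between percentile 28.2 and 94.7 for control H3K9Ac in rats and between 33.5 and 89.3 in mice, and markers from outside the brain between 17.5 and 24.4 and between 15.2 and 19.8. The marks did not separate all lists: for rat H3K4me3 the neuron markers ran from 11.4 (Syt1) to 85.1 and those from outside the brain from 15.4 to 33.2, and for H3K9Ac the striatum and hippocampus markers (19.9 to 63.7 and 24.2 to 45.7 in rats, 20.4 to 60.2 and 27.6 to 65.4 in mice) overlapped the neuron markers. Tests were made with limma on log2(signal + 1) over all genes with an interval in at least 3 of 9 libraries, adjusted over all of them, with a threshold of 0.05.

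In VPA-exposed rats given vehicle, H3K9Ac was higher than in controls at all 9 immediate early genes, with group means 1.99 to 2.30 times those of controls. Jun had 30.7, 26.6 and 25.3 in controls and 67.5, 71.6 and 41.8 with VPA and vehicle. Junb had 11.7, 9.36 and 10.4 against 27.0, 30.1 and 15.3, and Arc had 10.8, 7.96 and 8.73 against 23.3, 26.6 and 12.1. The third vehicle library was the lowest of its group at each member, yet above every control library.

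All 9 members passed the test, beside 96.5% of all 15368 genes tested, and all 9 were free of overlap, beside 94.3% of genes. On the log2(signal + 1) scale the changes ran from 0.87 (Npas4, SE 0.26) to 1.08 (Junb, SE 0.26), and limma gave adjusted p from 0.000357 (Junb) to 0.0014 (Npas4). Their median was 1.01, beside 0.88 over all genes, and 8 of the 9 lay above that median. Library medians were 1.98 times higher too. After each library was centred on its median, 1 member was still higher, Junb (0.22, SE 0.07, limma adjusted p 0.0348), beside 11.9% of all genes. After quantile normalization limma called 0 of 9, and Jun and Egr2 were at -0.017 and -0.026.

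With TAK-418, the H3K9Ac signal of exposed rats lay between the other groups. Nr4a2 had 15.6, 16.2 and 10.9 with VPA and vehicle and 7.31, 9.24 and 7.48 with VPA and TAK-418. Egr2 had 33.4, 34.2 and 20.3 against 16.7, 18.7 and 14.9, and its start region 12.5, 14.2 and 8.32 against 6.29, 7.96 and 6.11. For both genes every TAK-418 library was below every vehicle library. The ratio of group means ran from 0.561 (Nr4a2) to 0.711 (Npas4) over the members, beside 0.666 for the library medians.

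Nr4a2 fell by 0.75 on the log2 scale (SE 0.26, limma adjusted p 0.0487) and Egr2 fell by 0.74 (SE 0.26, adjusted p 0.0496), which is 2 of 9 members beside 10.4% of all genes. The Egr2 results in this paragraph are those of its downstream region, which lacks the Egr2 start and also lists Ado. The other members were between -0.41 (Npas4) and -0.75 (Jun, limma adjusted p 0.0539), beside a median of -0.52 over all genes. Egr2, Fos, Jun and Nr4a2 were free of overlap, 4 of 9 members beside 20.0% of all genes. After median centring 1 member was lower, Egr2 (-0.23, SE 0.07, limma adjusted p 0.0316), beside 8.16% of all genes, and after quantile normalization 0 of 9 were called. None passed with a pseudocount of 0.1 (8.17% of all genes did), with no interval filter (4.72%) or with only the 6 libraries compared (0.111%). Without the third vehicle library 9 members passed, beside 96.6% of all genes, and without the second TAK-418 library 1 did, beside 8.67%. Without each of the 7 other libraries in turn no member passed, nor did more than 1.73% of all genes. The comparison shares its vehicle libraries with the one before, so a high vehicle group moves both.

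Against controls, the TAK-418 group of rats had H3K9Ac ratios of 1.12 (Nr4a2) to 1.44 (Npas4), beside 1.32 for the library medians. None of the 9 members and none of all genes passed limma's test, and 0 members had an unadjusted p under 0.05, beside 9.4% of all genes. Even so, 6 members (Fos, Junb, Egr1, Arc, Npas4 and Nr4a1) were free of overlap above the controls, beside 51.8% of all genes. Without the third vehicle library, which only enters through the shared spread, 5 passed, beside 56.1% of all genes.

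**Figure D2:**
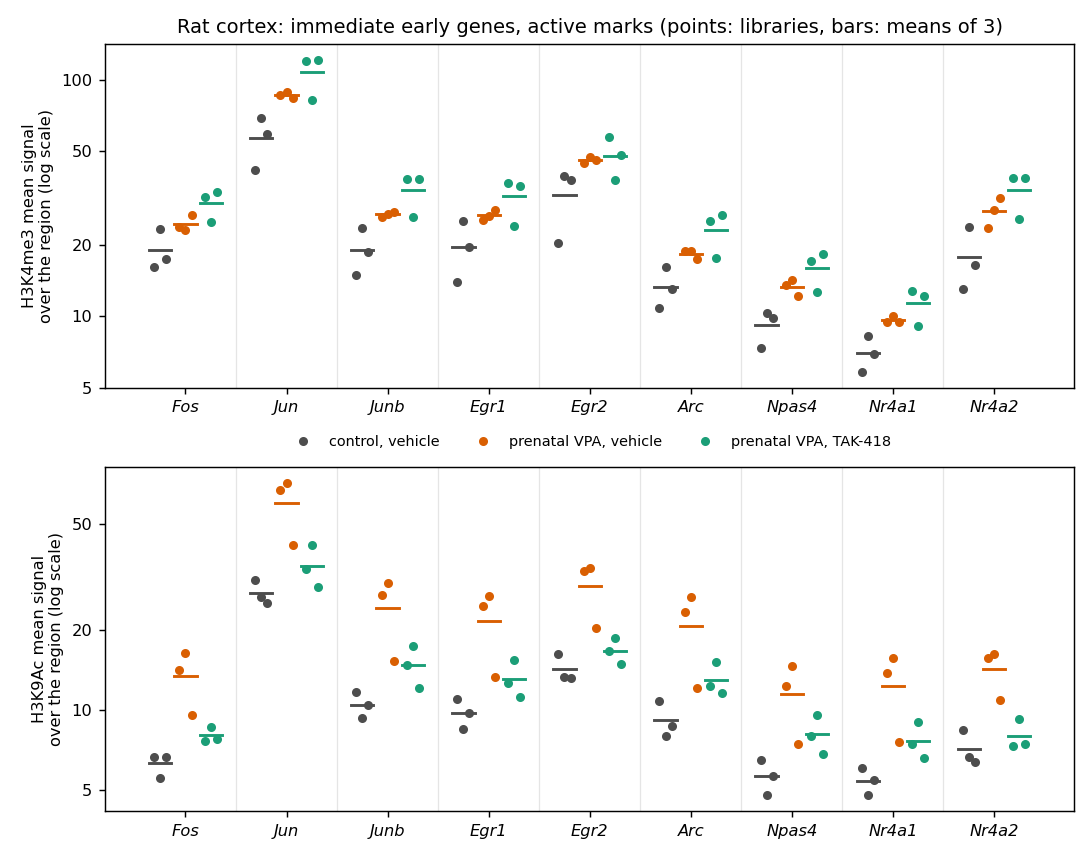
H3K4me3 and H3K9Ac signal (y axis, mean signal over the region, log scale, no stated unit) at 9 immediate early genes (x axis) in the rat control, VPA vehicle and VPA TAK-418 groups; points are libraries and bars are means of 3. H3K9Ac is highest in the vehicle group at each gene (Jun 67.5, 71.6 and 41.8), while H3K4me3 is highest in the TAK-418 group.

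H3K4me3 of rats was ordered differently: the TAK-418 group was the highest at every member. Jun had 41.7, 68.8 and 59.0 in controls, 85.8, 88.5 and 83.6 with VPA and vehicle, and 120.3, 82.2 and 121.4 with VPA and TAK-418. Nr4a2 had 13.1, 24.0 and 16.5, then 23.5, 28.1 and 31.7, then 38.6, 25.8 and 38.5. The second TAK-418 library was the lowest of its group at both genes, below every vehicle library at Jun and below 2 of 3 at Nr4a2.

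Between VPA with vehicle and controls, the H3K4me3 ratios were 1.29 (Fos) to 1.56 (Nr4a2), beside 1.34 for the library medians. By limma 0 of 9 members passed, with adjusted p from 0.0707 (Nr4a2) to 0.167 (Fos), beside 1.64% of all genes higher. At an unadjusted p under 0.05, 8 of 9 members passed, beside 43.9% of all genes. The groups did not overlap at 7 members, beside 63.3% of genes, and Fos and Nr4a2 were the exceptions. Without the second control library 8 members passed, beside 54.7% of all genes, and without the second TAK-418 library 8, beside 53.8%.

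Between TAK-418 and vehicle in exposed rats, H3K4me3 changed at none of the 9 members by limma, beside 0.137% of all genes higher, and none had an unadjusted p under 0.05. The differences ran from 0.04 (Egr2, SE 0.26) to 0.31 (Junb, SE 0.23) on the log2 scale, beside a median of 0.21 over all genes, and the groups overlapped at each member. The Egr2 difference stood at percentile 5.21 of all genes. The Egr2 start region had 21.2, 22.3 and 27.2 with vehicle and 33.4, 21.9 and 33.2 with TAK-418, so the low value belongs to the downstream region.

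Between VPA with TAK-418 and controls, H3K4me3 rose at all 9 members by limma, beside 85.8% of all genes. Nr4a2 rose by 0.92 (SE 0.23, limma adjusted p 0.00104), Jun by 0.93 (SE 0.30, adjusted p 0.00597) and Junb by 0.81 (SE 0.23, adjusted p 0.00281). Egr2, at its downstream region, rose least, by 0.58 (SE 0.26, limma adjusted p 0.0314). The median over members was 0.74, beside 0.61 over all genes. At 7 members the groups did not overlap, beside 57.6% of genes, and Egr1 and Egr2 were the exceptions. With libraries rescaled by either method, 0 of the 9 were called by limma, and centred differences were 0.30 for Jun and Nr4a2, -0.048 for Egr2 and -0.000736 for Nr4a1. Without the first TAK-418 library, 4 members passed, beside 23.3% of all genes.

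In poly I:C-exposed mice given vehicle, H3K9Ac was lower than in controls at every immediate early gene. In rats the vehicle group had been the higher one, and this contrast was not tested. Exposed rats had VPA and exposed mice had poly I:C, so species and exposure cannot be told apart. Arc had 16.5, 11.8 and 9.51 in controls and 8.54, 5.36 and 7.95 with poly I:C and vehicle. Nr4a1 had 10.8, 9.29 and 6.71 against 6.20, 3.64 and 5.53, and Junb had 18.5, 13.8 and 10.3 against 9.97, 6.03 and 8.96. Every vehicle library was below every control library at these genes, with the first control library the highest.

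By limma 7 of 10 members fell, beside 67.2% of all 16663 genes tested: Fosb, Junb, Egr1, Arc, Npas4, Nr4a1 and Nr4a2. Arc fell by 0.71 (SE 0.29, limma adjusted p 0.0312), Nr4a1 by 0.70 (SE 0.25, adjusted p 0.0289) and Fosb by 0.65 (SE 0.25, adjusted p 0.0289). The remaining members had similar differences that missed the threshold: Jun -0.60 (limma adjusted p 0.0671), Fos -0.49 (adjusted p 0.0587) and Egr2 -0.45 (adjusted p 0.0565). All 10 were free of overlap, beside 75.8% of genes. The median over members was -0.62, beside -0.56 over all genes, and member ratios of 0.573 to 0.678 stood beside 0.637 for the library medians.

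These calls changed with the libraries in the fit. Without the first control, the second control, the second vehicle or the third vehicle library, none of the 10 members and none of all genes passed. Without the first TAK-418 library 4 members passed, beside 50.1% of all genes, and without the second TAK-418 library 4, beside 46.0%. Without the third control library 10 passed, beside 94.3%. Both rescalings left 0 of 10 members called by limma. Nr4a2 was then at 0.090 after centring and 0.032 after quantile normalization, and Npas4 at 0.011 after the latter.

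Between poly I:C mice given TAK-418 and those given vehicle, H3K9Ac differed by less than the spread between libraries. Arc had 9.32, 9.21 and 5.33, and Junb 9.83, 10.0 and 6.22. Differences from vehicle ran from -0.04 (Jun, SE 0.31) to 0.10 (Arc, SE 0.29), with 0 members called by limma and 0 with an unadjusted p under 0.05. Against controls, adjusted p ran from 0.0522 to 0.108 by limma, so 0 members passed, while 9 of 10 had an unadjusted p under 0.05, beside 78.2% of all genes. At 8 members the groups did not overlap, beside 75.4% of genes, and Egr2 and Npas4 were the exceptions. Without the third control library 10 passed, beside 96.9% of all genes, and without the second vehicle library 8, beside 70.8%.

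**Figure D3:**
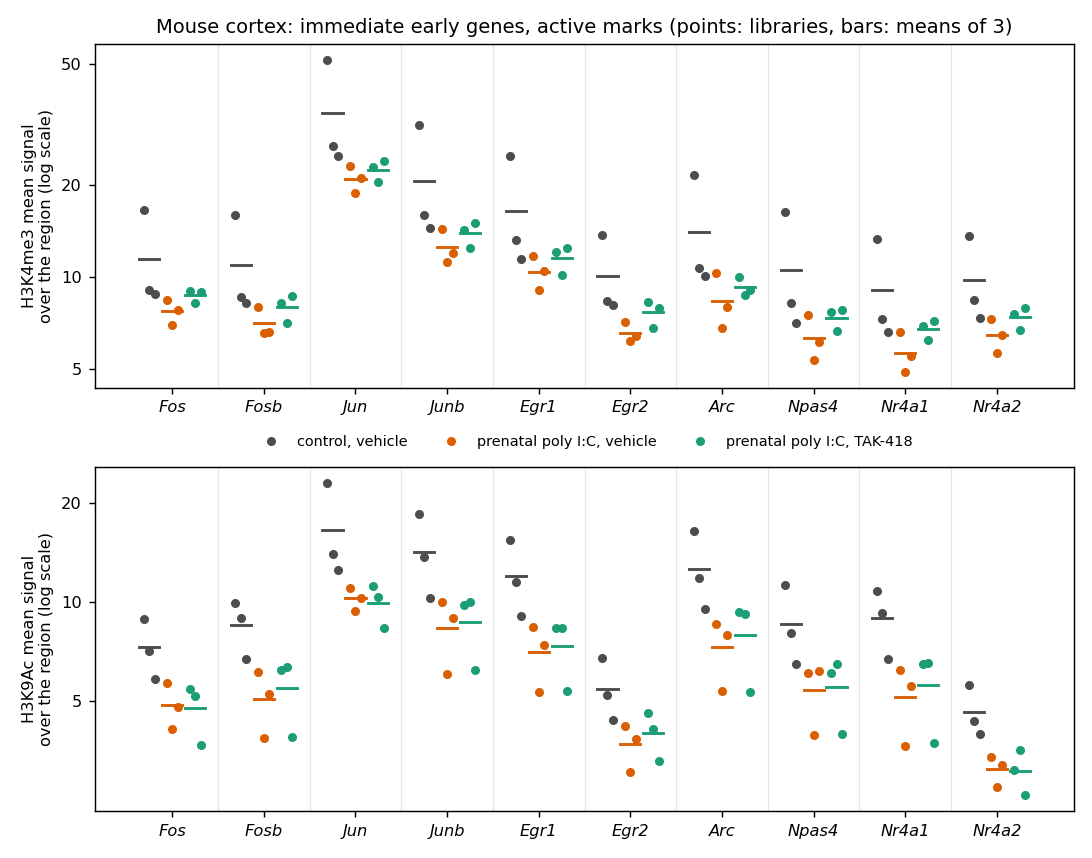
H3K4me3 and H3K9Ac signal (y axis, mean signal over the region, log scale, no stated unit) at 10 immediate early genes (x axis) in the mouse control, poly I:C vehicle and poly I:C TAK-418 groups; points are libraries and bars are means of 3. The control group is highest at each gene, and its first library stands above the others (Jun H3K4me3 51.8 beside 26.9 and 25.0).

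Mouse H3K4me3 also had lower means in both exposed groups, and the first control library stood far above the rest. Jun had 51.8, 26.9 and 25.0 in controls, 23.1, 18.9 and 21.2 with poly I:C and vehicle, and 23.0, 20.6 and 24.0 with poly I:C and TAK-418. Egr1 had 24.9, 13.3 and 11.4, then 11.7, 9.10 and 10.5, then 12.1, 10.1 and 12.5. The other 2 control libraries were close to the exposed groups at both genes.

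For vehicle against controls, limma called 0 of 10 members, with adjusted p from 0.11 to 0.129, and 4 (Junb, Arc, Npas4 and Nr4a1) had an unadjusted p under 0.05, beside 45.0% of all genes. The groups did not overlap at 7 members, beside 58.7% of genes. Without the third control library 10 members passed, beside 74.3% of all genes. For TAK-418 against controls, 0 passed by limma and 0 had an unadjusted p under 0.05, beside 4.21% of all genes, and Jun and Arc alone were free of overlap, beside 26.8% of genes. Between TAK-418 and vehicle the differences were 0.10 (Jun) to 0.23 (Nr4a1), beside a median of 0.13, with 0 called by limma and 0 at an unadjusted p under 0.05.

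**Figure D4:**
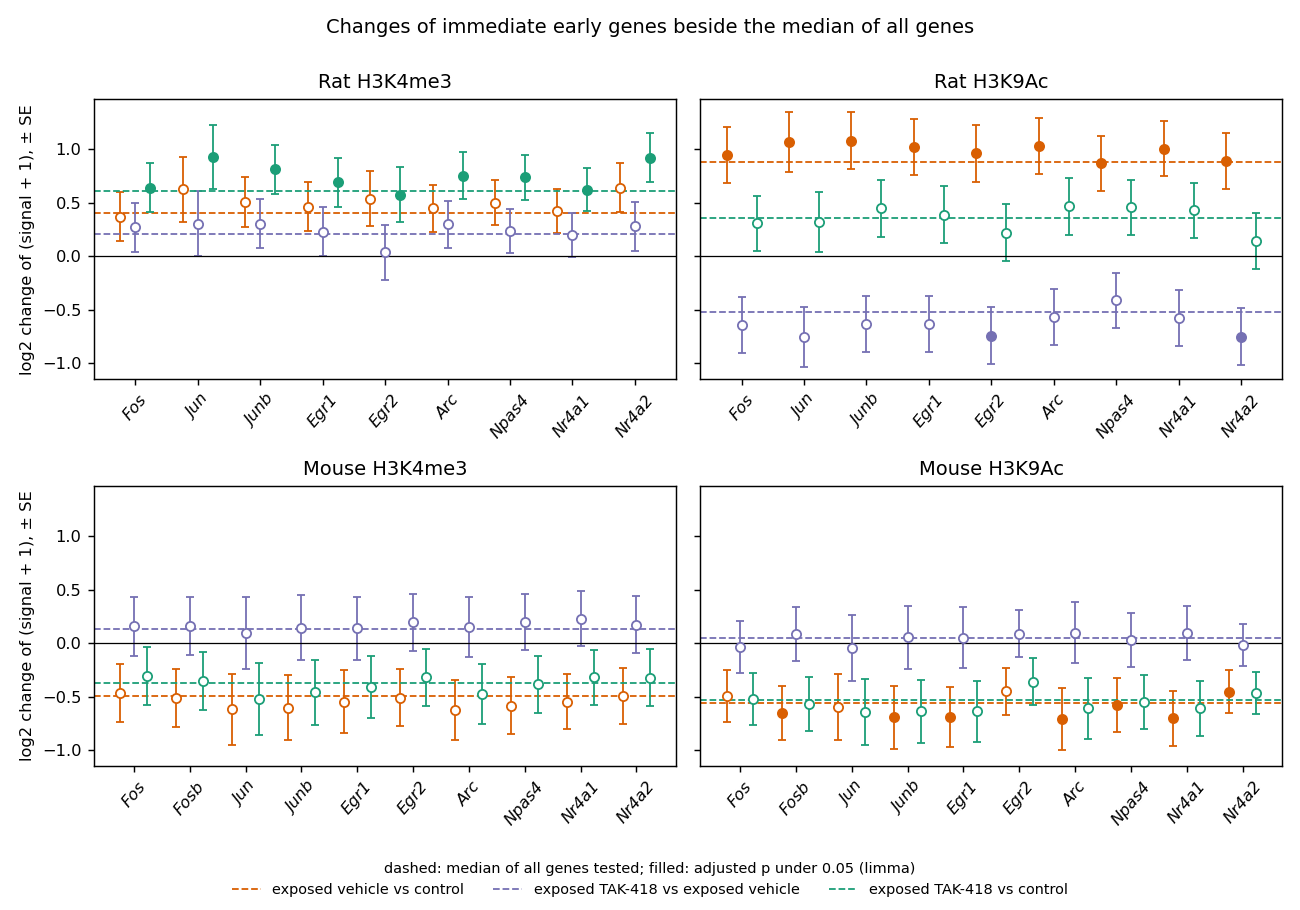
log2 change of (signal + 1) with its SE (y axis) for each immediate early gene (x axis) in the 3 comparisons, for H3K4me3 and H3K9Ac of each species; dashed lines are the median of all genes tested and filled points passed limma's test. Members lie close to the dashed line of their comparison, for instance 0.87 to 1.08 beside 0.88 for rat H3K9Ac in vehicle against control.

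No change of the Polycomb mark passed the test in rats: limma called 0 of the 6 members tested in any of the 3 comparisons, and 0 had an unadjusted p under 0.05. Nr4a2 had 13.2, 15.5 and 6.11 in controls, 10.5, 16.1 and 9.99 with VPA and vehicle, and 19.7, 8.89 and 9.88 with VPA and TAK-418. The third control library was the lowest of the 9 at all 6 members, and the first TAK-418 library the highest at 5, Egr1 being the exception. Differences between groups ran from -0.16 (Egr1, SE 0.33) to 0.16 (Fos, SE 0.35), each smaller than its SE. The Egr2 start region had 12.4 ± 6.00, 12.3 ± 2.92 and 12.4 ± 6.18 in the same groups.

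In mice given poly I:C and TAK-418, H3K27me3 was below every control library at all 5 members tested, beside 60.7% of all genes. Nr4a2 had 6.23, 8.17 and 9.01 in controls, 13.5, 9.20 and 3.83 with vehicle, and 4.70, 5.06 and 6.02 with TAK-418. Egr2 had 4.50, 6.34 and 7.01, then 10.3, 7.46 and 2.79, then 3.60, 3.80 and 4.46. The vehicle group spanned the other groups at both genes, and vehicle replicate 3 was the lowest library of all.

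By limma none of these 5 members was called, with adjusted p of 0.368 each against controls and from 0.314 to 0.316 against vehicle, and 0 had an unadjusted p under 0.05. The ratios to controls were 0.665 (Egr2) to 0.761 (Fosb), beside 0.696 for the library medians. Without the third vehicle library all 5 were called lower against vehicle, as were 100% of all 7732 genes tested. For vehicle against controls the differences were 0.04 to 0.11, with 0 called by limma and 0 at an unadjusted p under 0.05.

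**Figure D5:**
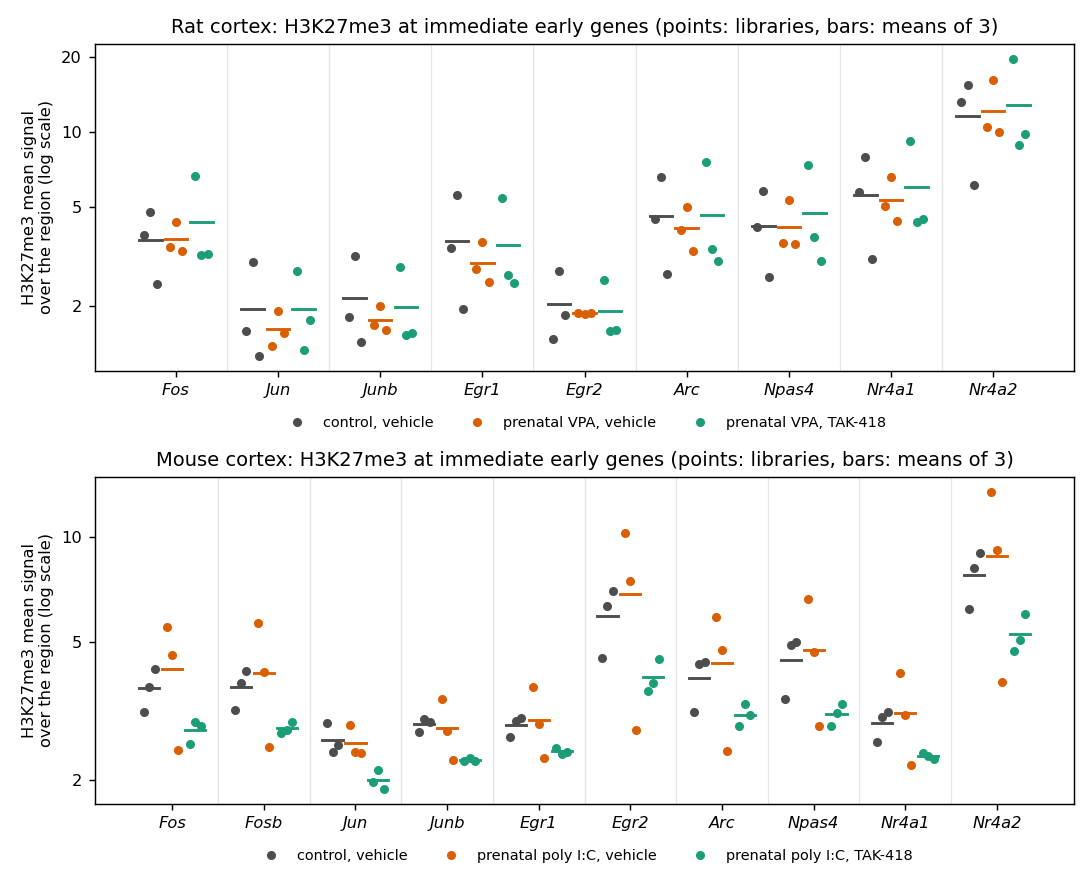
H3K27me3 signal (y axis, mean signal over the region, no stated unit) at the immediate early genes (x axis) in rats (top) and mice (bottom); points are libraries and bars are means of 3 in the control, vehicle and TAK-418 groups. Over the strongest region of each gene, Nr4a2 is the highest in each species, at 11.6 ± 4.90 in rat and 7.80 ± 1.42 in mouse controls, and groups overlap in rats. The rat Egr2 start region, at 12.4 ± 6.00 in controls, is not plotted.

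Neither NR4A gene was called for H3K9me3 in rats. By limma 0 of these 2 members passed in either exposed group against controls, beside 45.6% of all 4986 genes tested called higher with VPA and vehicle and 18.1% with VPA and TAK-418. Nr4a1 had 1.68, 1.96 and 1.97 in controls and 2.29, 2.49 and 2.04 with VPA and vehicle, free of overlap as were 86.0% of genes, with a limma adjusted p of 0.106. Nr4a2 had 1.74, 2.71 and 2.30 against 2.91, 2.31 and 2.35, which overlap. Its log2 difference of 0.13 (SE 0.13, limma adjusted p 0.336) stood at percentile 0.983 of all genes tested, whose median was 0.40. Nr4a2 had an interval in only 5 of 9 libraries, with signals near the lowest value above 0, where this scale understates changes. Neither had an unadjusted p under 0.05 against controls, beside 67.5% of all genes with VPA and vehicle and 55.1% with VPA and TAK-418. Without the third TAK-418 library 1 of the 2 passed in each of these comparisons, beside 74.1% and 75.2% of all genes. Between TAK-418 and vehicle the differences were -0.0046 (Nr4a1) and -0.11 (Nr4a2), with 0 called by limma and 0 at an unadjusted p under 0.05.

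In mice Nr4a2 was the only member tested for H3K9me3, with 2.82, 2.04 and 1.84 in controls, 1.59, 1.59 and 4.30 with poly I:C and vehicle, and 2.33, 1.35 and 1.98 with poly I:C and TAK-418. The third vehicle library was the highest of the 9 and the rest overlapped. Limma called it in 0 of 3 comparisons, and its unadjusted p was under 0.05 in 0.

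Other activity-regulated genes were called in the same comparisons as the members. Of 46 other such genes, 44 were tested for rat H3K9Ac, and 44 rose with VPA and vehicle by limma, with a median of 0.97 beside 0.88 over all genes. They include Nr4a3, the third NR4A receptor (1.19, SE 0.26), Fosl2, an AP-1 subunit (1.18, SE 0.26), and Gadd45b, a DNA demethylation factor (1.17, SE 0.26). With TAK-418 against vehicle 9 of the 44 fell, with a median of -0.60 beside -0.52, among them Tiparp (-1.06), Klf10 (-0.95) and Nr4a3 (-0.90). For rat H3K4me3, 42 of 44 rose in TAK-418 against controls, with a median of 0.71 beside 0.61, led by Klf4 (1.06), Myc (1.16) and Vgf (0.87). For mouse H3K9Ac, 31 of 44 fell with poly I:C and vehicle, with a median of -0.56 beside -0.56, led by Maff (-0.82), Cebpb (-0.65) and Ier2 (-0.82). Over all genes the shares called in these comparisons were 96.5%, 10.4%, 85.8% and 67.2%, in the order given. Rescaling changed these counts. After median centring limma called 13 of the 44 higher and 1 lower for rat H3K9Ac with VPA and vehicle, beside 11.9% and 10.6% of all genes. For TAK-418 against vehicle it called 1 higher and 9 lower, beside 9.21% and 8.16%. For rat H3K4me3 and mouse H3K9Ac it called 0, as over all genes. After quantile normalization it called 1 higher and 1 lower for rat H3K9Ac in TAK-418 against vehicle, beside 1.91% and 0.794% of all genes. It called 0 in the other 3 comparisons. Over all genes these had 0.026% higher and 0.631% lower for VPA and vehicle, and 0 for rat H3K4me3 and mouse H3K9Ac.

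Genes of the upstream signalling, from glutamate receptors and calcium channels to kinases, CREB, SRF and their coactivators, numbered 21. By limma 19 of 20 tested rose for rat H3K9Ac with VPA and vehicle, with a median of 0.97, and the CREB coactivator Crtc1 (1.18, SE 0.26) and Srf itself (1.13, SE 0.26) led. With TAK-418 against vehicle 4 of 20 fell, with a median of -0.62 beside -0.52, among them Mef2a (-0.83), a calcium-responsive factor, and the acetyltransferase gene Ep300 (-0.81). For rat H3K4me3, 16 of 20 rose in TAK-418 against controls (median 0.63 beside 0.61), and for mouse H3K9Ac 12 of 21 fell with vehicle (median -0.56 beside -0.56). As deposited, the shares called over all genes were 96.5%, 10.4%, 85.8% and 67.2%, in the order given. After median centring 6 of the 20 were higher and 2 lower for rat H3K9Ac with VPA and vehicle by limma, beside 11.9% and 10.6% of all genes. With TAK-418 against vehicle 2 were higher and 3 lower, beside 9.21% and 8.16%. For rat H3K4me3 and mouse H3K9Ac 0 were called, as over all genes. After quantile normalization 1 was lower with VPA and vehicle (0.631% of all genes) and 2 were higher with TAK-418 against vehicle (1.91%). In the other comparisons 0 were called.

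Further regions list Nr4a2 and Fos in rats and Npas4 in mice. The second rat Nr4a2 region, on chromosome 3 from 48197400 to 48202799, had H3K4me3 of 21.6 ± 4.59 in controls, 31.9 ± 3.90 with VPA and vehicle, and 36.2 ± 8.75 with TAK-418. Its H3K9Ac was 8.74 ± 1.49, 17.4 ± 4.07 and 9.35 ± 1.49, highest in the vehicle group as in the main region. The second rat Fos region, on chromosome 6 from 116229600 to 116245599, had H3K4me3 of 12.7 ± 1.19, 13.1 ± 0.650 and 16.4 ± 4.08, so its vehicle and control groups overlapped. The second mouse Npas4 region, on chromosome 19 from 4974600 to 4977599, had an active mark called in 0 of 9 libraries.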

How the data were processed

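The members and the gene lists were chosen with earlier results of these data known. Alignment was to mm10 and rn5 with BWA 0.7.12, per the submitters' processing notes. No source used here names the peak caller, the bin width or the scaling of libraries. The authors deposited signal per merged region and library, per the file headers: a mean, a highest value and whether an interval was called. All per-sample columns were matched by name.

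Each gene took, of the regions naming it, the strongest by mean signal over its species' libraries. Genes with an interval in at least 3 of 9 libraries were tested with limma 3.58.1 (R 4.3.3; trend, robust) on log2(signal + 1), 1 model per mark and species, Benjamini-Hochberg adjusted per comparison over all genes tested. The 24 comparisons were vehicle against control, TAK-418 against vehicle and TAK-418 against control. This scale understates changes of weakly marked genes. The named genes were all members and, per list and comparison with a called member, the 3 genes of smallest p. A limma fit of the same kind, without the other steps, was tried on values simulated from rat H3K9Ac with known changes. The simulation held no shifts of whole libraries. Alternatives were median centring, quantile normalization, other filters, pseudocount 0.1, the highest signal, the region nearest to the start, distinct regions, only the libraries compared, a replicate block and leaving out each library. Depth is unknown, so no counting interval was computed. In 1 of the 24 comparisons (mouse H3K27me3, TAK-418 against control) same-numbered libraries deviated together from their group means (correlations across genes of 0.64, 0.22 and 0.43); the replicate numbers are those of the labels.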

Additional observations from a re-analysis of the deposited data

How the results depend on the processing

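The count of members called kept within 1.5 times in 218 of 240 settings other than leaving out a library, over 24 comparisons. A count that stayed at 0 was among those kept, and only 4 comparisons had a called member as deposited. The share kept therefore says little about those 4. Median centring gave 0 for rat H3K4me3 TAK-418 against control (9 as deposited), 1 for rat H3K9Ac vehicle against control (9), 1 for rat H3K9Ac TAK-418 against vehicle (2) and 0 for mouse H3K9Ac vehicle against control (7). The shares of all genes called after centring were 0%, 22.5%, 17.4% and 0%, in the same order. Quantile normalization gave 0 in all 4, beside 0%, 0.657%, 2.70% and 0% of all genes. For rat H3K9Ac TAK-418 against vehicle the count was also 0 with no interval filter (4.72% of all genes) and 0 with a pseudocount of 0.1 (8.17%). It was 9 with the highest signal (72.2%), 1 with the region nearest to the gene start (10.8%) and 6 with distinct regions (26.9%). It was 0 with only the 6 libraries compared (0.111%) and 8 with the replicate block (67.8%). With only the 6 libraries compared it was 7 for rat H3K4me3 vehicle against control (0; 43.6% of all genes), 4 for rat H3K9Ac TAK-418 against control (0; 40.3%), 1 for rat H3K9me3 vehicle against control (0; 87.0%), 3 for mouse H3K9Ac vehicle against control (7; 8331 of 16663 genes) and 4 for mouse H3K27me3 TAK-418 against control (0; 76.5%). The highest signal gave 0 for mouse H3K9Ac vehicle against control (0.0120% of all genes). Adding the replicate number as a block (replicate block) gave 9 for mouse H3K9Ac TAK-418 against control (0; 89.6% of all genes) and kept the count within 1.5 times in the other comparisons, rat H3K9Ac TAK-418 against vehicle excepted. In the 1 comparison whose numbers passed the pairing check, mouse H3K27me3 TAK-418 against control, the block gave 0 members, as without it. In 0 of the 24 comparisons did every sample correlate best with its own number. The cause was not tested.

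Leaving out 1 library at a time gave the following counts, with the share of all genes called in brackets for the count furthest from that as deposited. Rat H3K4me3 gave 0 to 8 members for vehicle against control (54.7% and 53.8% at 8) and 4 to 9 for TAK-418 against control (23.3% at 4). Rat H3K9Ac gave 0 to 9 for TAK-418 against vehicle (96.6% at 9) and 0 to 5 for TAK-418 against control (56.1% at 5). Rat H3K9me3 gave 0 to 1 for vehicle and TAK-418 against control (74.1% and 75.2% at 1). Mouse H3K4me3 gave 0 to 10 for vehicle against control (74.3% at 10). Mouse H3K9Ac gave 0 to 10 for vehicle against control (0% at 0) and 0 to 10 for TAK-418 against control (96.9% at 10). Mouse H3K27me3 gave 0 to 5 for TAK-418 against vehicle (100% at 5). Rat H3K9Ac vehicle against control stayed at 9 of 9 in each, beside 96.5% of all genes as deposited.

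For single members called as deposited, leaving out a library kept the call in 180 of 243 cases and lost it in 63. With the other settings the call was kept in 197 of 270 cases and lost without a change of sign in 65. The sign changed in the remaining 8. For rat H3K4me3 TAK-418 against control Egr2 was -0.048 after centring and -0.059 after quantile normalization, and Nr4a1 -0.000736 after centring. For rat H3K9Ac vehicle against control Egr2 was -0.026 and Jun -0.017 after quantile normalization. For mouse H3K9Ac vehicle against control Npas4 was 0.011 after quantile normalization, and Nr4a2 0.090 after centring and 0.032 after quantile normalization.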
